A study of Arabidopsis thaliana with 18 samples.

Results

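The 149 probe sets described here were the ones with the lowest signal in 3 of 18 ATH1 arrays of the Arabidopsis accession Cvi-1, relative to 3 others. They were chosen from 13657 tested probe sets. These lay outside the array controls and had a mean log2 signal over all 18 arrays corresponding to a signal of at least 19.8. For each, the mean log2 signal of the arrays with title serials 19, 21 and 29 was subtracted from that of serials 20, 28 and 30. The 150 probe sets with the most negative difference were taken, and 1 of them was left out by gene name. The values of those 6 arrays therefore chose the members, and they are given below as a description without a test. The other 12 arrays, serials 22 to 27 and 31 to 36, took no part in the ranking, and the tests rest on them. They did count in the filter on signal, so a weak member may have passed it through its values there.

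Cvi-1 is an accession from the Cape Verde Islands. Of the 18 arrays, 9 were labelled 0.30 mM salicylic acid (SA, a plant defence hormone) in 0.02% silwet, an organosilicone surfactant, and 9 were labelled 0.02% silwet alone, so the surfactant was common to all samples. Each treatment has replicate numbers 1, 2 and 3 in 3 runs of serial numbers, called serial blocks here. The first block holds SA arrays 28 to 30 and silwet arrays 19 to 21, the second holds SA 31 to 33 and silwet 22 to 24, and the third holds SA 34 to 36 and silwet 25 to 27. The sources used here do not give what the serial blocks stand for, the tissue or the time of harvest. Nothing in the labels ties an array to plants of its own, so a p-value below measures the spread between samples that may differ for technical reasons only.

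Several of the genes named below act in the plant cell wall. Pectin is a polysaccharide of the primary wall and of the layer between cells, and it is modified by lyases, polygalacturonases and methylesterases, the last of which are held in check by inhibitor proteins. Other members belong to families that act in the cuticle, in chloroplasts, in oxidation and sugar conjugation of small molecules, and in receptor-like kinase signalling. These roles are background, from general knowledge of each family, and the grouping by role was made by hand after the members were known.

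Of the 149 members, 86 were paired with a single gene (85 loci, since AT5G50740 had 2 probe sets), 3 with several genes and 60 with none. A single gene was known for 57.7% of the members and for 53.8% of the tested probe sets. The loci lay on all 5 nuclear chromosomes, with 23 probe sets on chromosome 1, 11 on chromosome 2, 17 on chromosome 3, 12 on chromosome 4 and 23 on chromosome 5. AT2G29290 and AT2G29310, both short-chain dehydrogenases of the tropinone reductase type, lay 2 genes apart. The median gene length was 2074 bp for the members and 2361 bp for all tested probe sets. Mean log2 signal over the 18 arrays had a median of 6.42 among the members and 6.51 among the tested probe sets, and 59 members were under a mean log2 signal of 6, the range where these signals are least precise.

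Arrays 20, 28 and 30 did not follow the treatment labels. Arrays 28 and 30 were labelled SA and array 20 was labelled silwet, while the higher set consisted of silwet arrays 19 and 21 and SA array 29. In each replicate number of the first block 1 array was therefore low and its partner high. In replicate number 1 SA array 28 differed from silwet array 19 by a median log2 of -1.73 over the members, and 148 of 149 were lower. In replicate number 2 silwet array 20 differed from SA array 29 by a median log2 of -1.70, and all 149 were lower. In replicate number 3 SA array 30 differed from silwet array 21 by -1.85, and all 149 were lower. Over all tested probe sets the medians of these 3 pairs were -0.07, -0.10 and -0.14, with 55.1%, 58.0% and 61.1% lower. The rule ranked on these arrays, so the counts of members carry no test. With the labels as given, the SA minus silwet difference of the members in the first block had a median log2 of -0.66, and within replicate numbers 1, 2 and 3 it was -1.73, 1.70 and -1.85. With the labels of arrays 20 and 29 exchanged the 3 differences would be -1.73, -1.70 and -1.85, and whether these labels were exchanged was not tested. Without arrays 20 and 29 the treatment difference of the first block rests on the pairs of replicate numbers 1 and 3.

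The difference that chose the members ran from -1.53 to -3.06 log2, or 2.88-fold to 8.31-fold lower in arrays 20, 28 and 30, with a median of -1.75 (3.37-fold lower). Over all tested probe sets its median was -0.11, with 745 below -1 and 755 above 1. The 150 probe sets at the other end, highest in the same 3 arrays, ran from 1.78 to 5.04 with a median of 2.13, so the positive end was the longer. At the lower limit of the members, AT1G70280 stood at -1.532 and the next 2, which have no gene name, at -1.531 and -1.526. Just outside it were an unnamed probe set at -1.525, AT5G52190 at -1.523 and AT3G50240, a kinesin, at -1.52, so no gap separated members from non-members.

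In 143 of the 149 members all 3 values of arrays 20, 28 and 30 lay below all 3 of arrays 19, 21 and 29, which was the case in 26.1% of the tested probe sets. The rule used this contrast, so the count carries no test. Array 30 was the lowest of all 18 arrays in 85 members, array 28 in 39 and array 20 in 23, and SA arrays 34 and 36 in 1 each. Relative to each member's mean over the 12 other arrays, the member median was -1.59 in array 20, -1.65 in array 28 and -1.99 in array 30, against 0.13 in array 19, -0.17 in array 21 and 0.07 in array 29. Over all tested probe sets the medians were -0.14, -0.06 and -0.17 in arrays 20, 28 and 30. A signal under 16 was found for 37.7%, 38.5% and 37.6% of all probe sets in arrays 20, 28 and 30, against 35.7%, 34.8% and 36.2% in arrays 19, 21 and 29. The ratio of the 3' to the 5' ubiquitin control, a measure of RNA integrity and labelling, was 2.31, 2.75 and 2.63 in arrays 20, 28 and 30, against 3.34, 2.66 and 3.24 in arrays 19, 21 and 29. The ratio for actin ran the other way, at 0.997, 1.12 and 1.29 in arrays 20, 28 and 30, against 0.744, 1.14 and 0.898 in arrays 19, 21 and 29. That for GAPDH went the way of ubiquitin, at 1.163, 1.003 and 1.104 in arrays 20, 28 and 30, against 1.178, 1.195 and 1.314 in arrays 19, 21 and 29. The part of these array properties in the members' values was not tested.

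**Figure D1:**
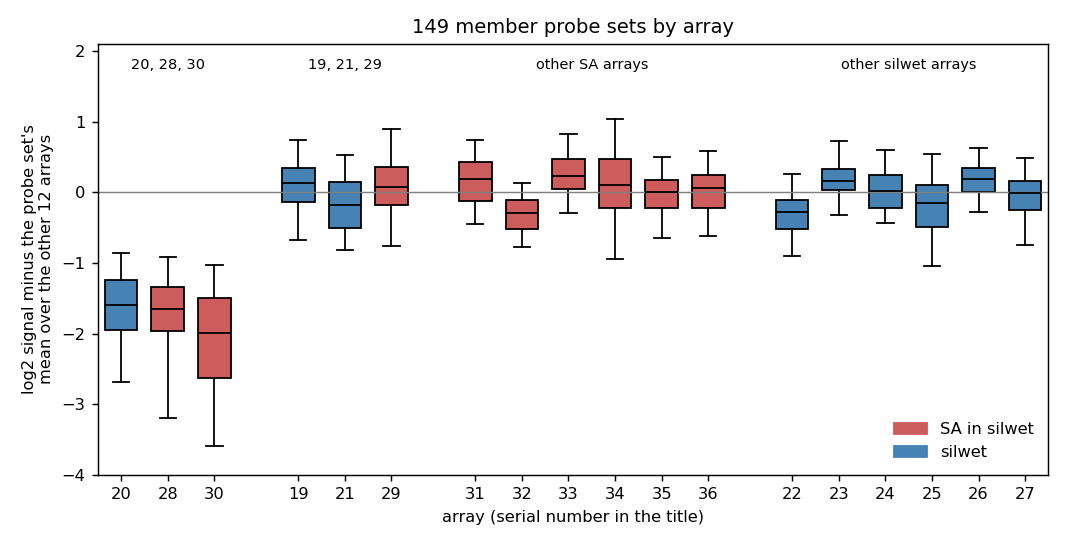
Log2 signal of the 149 members in each of the 18 arrays, minus each member's mean over the 12 arrays outside the ranking. Boxes show the quartiles and the median over members, whiskers the 5th and 95th percentiles, and colours the treatment. Arrays 20, 28 and 30 have medians of -1.59, -1.65 and -1.99, and the other 15 arrays have medians between -0.29 and 0.24.

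The 12 arrays outside the ranking resembled arrays 19, 21 and 29. The mean of the 12 was above the mean of arrays 19, 21 and 29 in 72 members and below it in 77, with a median log2 difference of -0.01. It was above the mean of arrays 20, 28 and 30 by a median of 1.78. On a scale where the mean of arrays 20, 28 and 30 is 0% and that of arrays 19, 21 and 29 is 100%, the 12-array mean lay at a median of 99.3%, with quartiles of 89.3% and 110.5% and a range of 50.0% to 173.5%. In 129 members arrays 20, 28 and 30 were all below every one of the 12, against 16.5% of the tested probe sets, a count that also rests on the arrays of the rule. In medians over the members, the difference was thus one of low values in 3 arrays, with the other 15 near a common level. Single members departed from this, as the range of 50.0% to 173.5% shows.

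**Figure D2:**
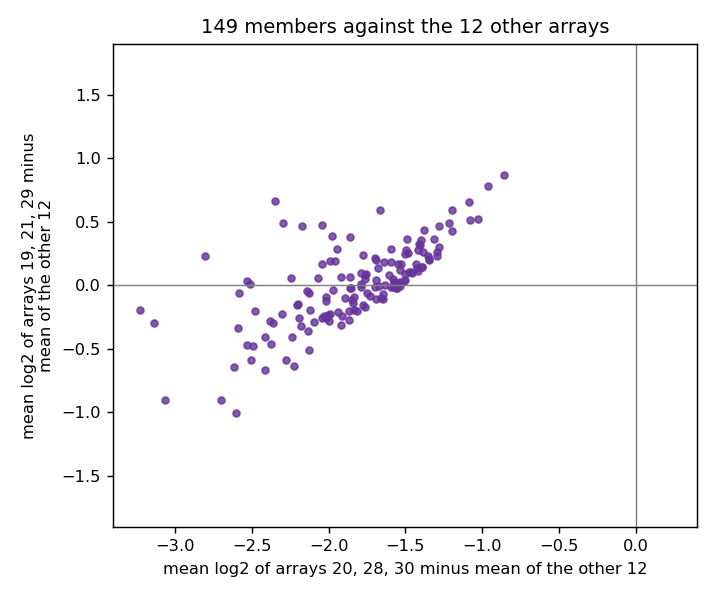
For each of the 149 members, the mean log2 signal of arrays 20, 28 and 30 (horizontal) and of arrays 19, 21 and 29 (vertical), both minus its mean over the other 12 arrays. The members lie left of zero on the horizontal axis, with a median of 1.78 between the means, and on both sides of zero on the vertical axis, 72 with the 12-array mean above arrays 19, 21 and 29 and 77 with it below.

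The largest difference was that of AT1G60590, a pectin lyase-like protein, at -3.06. Its signal was 13.6, 0.664 and 16.1 in arrays 20, 28 and 30, against 38.8, 40.3 and 53.6 in arrays 19, 21 and 29, with a range of 18.8 to 65.0 (median 38.9) in the other 12 arrays. The value in array 28 was far below the other 17, at a signal where the measurement is weak. AT3G28270 followed at -3.01, with signals of 98.8, 123 and 30.4 in arrays 20, 28 and 30, against 897, 240 and 903 in arrays 19, 21 and 29, and 133 to 1027 (median 360.7) in the other 12. Array 21 was well below arrays 19 and 29 in this gene, but still above arrays 20, 28 and 30. AT1G68600, of the aluminium-activated malate transporter family of anion channels, had 64.3, 107 and 29.0 in arrays 20, 28 and 30, against 503.6 in array 19 and 425 in array 29, with array 21 below these, and 381 to 820.3 (median 482) in the other 12. Array 21 was the lowest of the 15 arrays outside the low set and still lay far above arrays 20, 28 and 30.

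AT4G25780, a secreted protein of the CAP family that includes PR-1, had signals of 11.1, 11.2 and 7.13 in arrays 20, 28 and 30, against 123, 32.1 and 73.3 in arrays 19, 21 and 29, and 20.4 to 96.4 (median 51.0) in the other 12. AT3G17640, a leucine-rich repeat protein, had 25.5, 2.78 and 22.6 in arrays 20, 28 and 30, against 84.8, 54.8 and 84.3 in arrays 19, 21 and 29. Its lowest value in the other 12, 23.8 in silwet array 25, lay within the range of arrays 20, 28 and 30. ATSPS4F, a sucrose-phosphate synthase, the enzyme that makes the precursor of sucrose, had 35.9, 61.5 and 24.5 in arrays 20, 28 and 30, against 277, 94.3 and 217 in arrays 19, 21 and 29, and 78.9 to 238 (median 143) in the other 12. AT1G78450, a member of the SOUL haem-binding family, had 138, 215 and 80.2 in arrays 20, 28 and 30, against 675, 489 and 714 in arrays 19, 21 and 29, and 324 to 779 (median 576) in the other 12. Neither ATSPS4F nor AT1G78450 overlapped between arrays 20, 28 and 30 and the other 15.

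**Figure D3:**
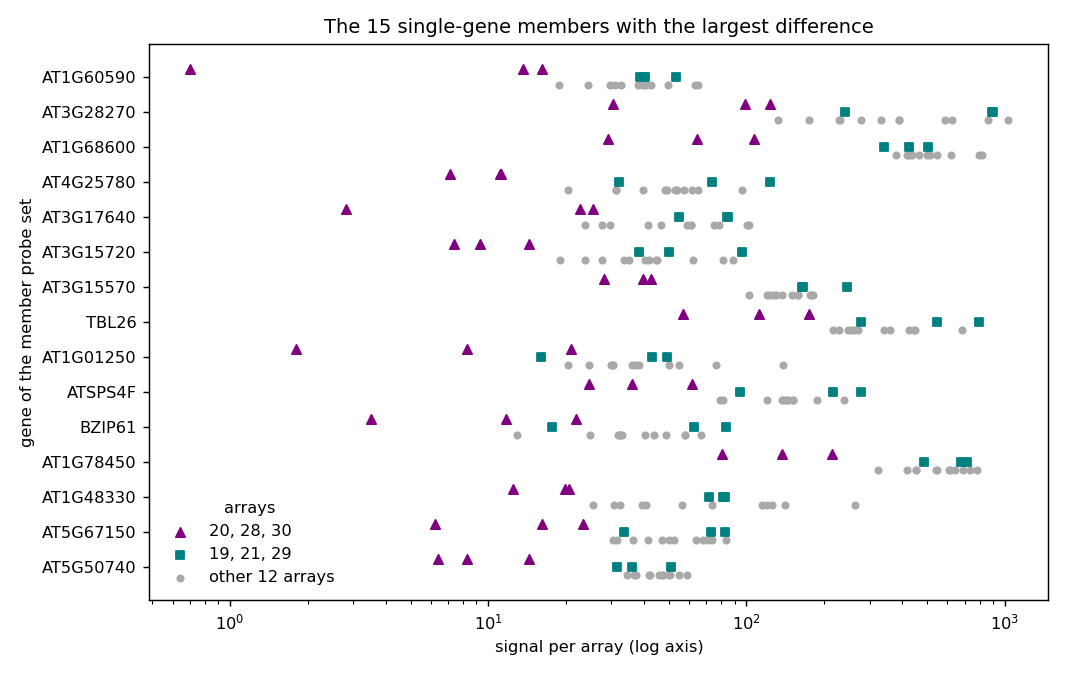
Signal in each of the 18 arrays, on a log axis, for the 15 members with a single gene and the most negative difference. Triangles are arrays 20, 28 and 30, squares arrays 19, 21 and 29, and small points the other 12 arrays. In AT1G68600 the triangles reach 107 and every other array lies to the right of them, while in AT1G01250 and BZIP61 the triangles and squares overlap.

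The 10 wall genes had a median difference of -1.87, with values from -1.75 to -3.06, and all 10 were lower in arrays 20, 28 and 30 without overlap with arrays 19, 21 and 29. In 8 of the 10 these arrays were also below all of the other 12. Of all 149 members, 143 lacked the first overlap and 129 were below the other 12, against 26.1% and 16.5% of the tested probe sets. The rule ranked on these arrays, so such counts do not set a role group apart from the other members. AT3G15720, of the pectin lyase-like fold, had signals of 14.4, 7.35 and 9.34 in arrays 20, 28 and 30, against 38.2, 50.1 and 96.5 in arrays 19, 21 and 29, and 19.0 to 88.7 (median 41.2) in the other 12. AT1G10640, of the same fold, had 14.9, 10.7 and 26.8 in arrays 20, 28 and 30, against 62.3, 86.3 and 47.9 in arrays 19, 21 and 29, and 73.7 to 168 (median 91.2) in the other 12. In AT1G10640 the median of the 12 arrays was above arrays 19, 21 and 29 as well. AT3G06770, a further pectin lyase-like protein, had 45.5, 29.6 and 47.4 in arrays 20, 28 and 30, against 121, 179 and 133 in arrays 19, 21 and 29. AT1G67750, of the pectate lyase family, had 45.6, 63.4 and 29.6 in arrays 20, 28 and 30, against 183, 176 and 143 in arrays 19, 21 and 29, and 143 to 440 (median 253) in the other 12.

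AT5G62360, AT5G20740 and AT1G23205 belong to the pectin methylesterase inhibitor family and were also lower in arrays 20, 28 and 30. AT5G62360 had signals of 262, 287 and 177 in arrays 20, 28 and 30, against 674, 792 and 942 in arrays 19, 21 and 29, and 338.7 to 933 (median 548) in the other 12. AT5G20740 had 18.0, 24.0 and 15.1 in arrays 20, 28 and 30, against 64.9, 52.5 and 78.9 in arrays 19, 21 and 29. AT1G23205 had 27.4, 16.6 and 22.0 in arrays 20, 28 and 30, against 63.9, 61.7 and 96.8 in arrays 19, 21 and 29. In AT1G23205 the lowest of the other 12 arrays, 27.1 in silwet array 25, was just under the value of array 20. TBL26, of the family that acetylates wall polysaccharides, had 112, 175 and 56.6 in arrays 20, 28 and 30, against 549, 279 and 799 in arrays 19, 21 and 29, and 216 to 681 (median 306) in the other 12. GH9C2, an endoglucanase of glycoside hydrolase family 9, had 256, 89.8 and 86.0 in arrays 20, 28 and 30, against 464, 299.8 and 612 in arrays 19, 21 and 29, and its 12-array minimum, 229 in silwet array 22, lay below array 20.

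The lipid group of 4 genes had a median difference of -1.86. AT4G01130 and AT1G29660 belong to the GDSL family of lipases and esterases, some members of which build cutin. AT4G01130 had signals of 25.6, 19.7 and 16 in arrays 20, 28 and 30, against 85.0, 78.0 and 74.9 in arrays 19, 21 and 29, and 58.0 to 103 (median 76.2) in the other 12. AT1G29660 had 157, 66.2 and 142 in arrays 20, 28 and 30, against 278, 543 and 375 in arrays 19, 21 and 29, and 425 to 867 (median 604) in the other 12. Both separated arrays 20, 28 and 30 from all others. SHN3, an AP2-domain transcription factor of cuticle formation, had 12.6, 15.5 and 1.91 in arrays 20, 28 and 30, against 40.4, 23.7 and 15.8 in arrays 19, 21 and 29, so that arrays 28 and 29 were almost level. AT5G48490, a lipid transfer protein, had 30.0, 9.41 and 57.8 in arrays 20, 28 and 30, against 63.1, 165 and 88.3 in arrays 19, 21 and 29, and 50.2 to 219 (median 138) in the other 12.

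The 8 genes of oxidation and conjugation had a median of -1.77, and in all 8 arrays 20, 28 and 30 were below every other array. They were below the 12 arrays outside the ranking in 129 of all 149 members and in 16.5% of the tested probe sets. AT5G67150, an acyltransferase of the BAHD type, had signals of 23.2, 16.1 and 6.21 in arrays 20, 28 and 30, against 72.9, 33.6 and 82.3 in arrays 19, 21 and 29. AT5G21100, of the ascorbate oxidase family of apoplastic enzymes, had 22.3, 21.7 and 20.8 in arrays 20, 28 and 30, against 72.2, 76.7 and 85.6 in arrays 19, 21 and 29, and 42.1 to 87.4 (median 57.2) in the other 12. AT5G40150, a class III peroxidase, had 17.0, 15.3 and 13.7 in arrays 20, 28 and 30, against 53.5, 49.3 and 49.8 in arrays 19, 21 and 29. The values of AT5G21100 and AT5G40150 were close together within each set of 3. AT3G19000, a 2-oxoglutarate-dependent oxygenase, had 25.5, 39.3 and 22.3 in arrays 20, 28 and 30, against 119, 78.1 and 109 in arrays 19, 21 and 29. AT3G21790, a UDP-glycosyltransferase, had 19.6, 19.0 and 9.05 in arrays 20, 28 and 30, against 52.8, 44.4 and 50.8 in arrays 19, 21 and 29. AT5G44410, of the berberine bridge enzyme family, had 9.37, 11.1 and 5.60 in arrays 20, 28 and 30, against 35.5, 20.0 and 34.5 in arrays 19, 21 and 29, all of them weak signals. AT2G29310 had 143, 107 and 156 in arrays 20, 28 and 30, against 386, 391 and 387 in arrays 19, 21 and 29. AT2G29290 had 107, 84.5 and 90.9 in arrays 20, 28 and 30, against 265, 294 and 271 in arrays 19, 21 and 29, so these neighbours on chromosome 2 differed to a like degree.

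The 6 genes of plastid proteins and organelle RNA processing had a median of -1.76, and in all 6 arrays 20, 28 and 30 were below the other 15. As given above, most members were below the 12 arrays outside the ranking (129 of 149, against 16.5% of the tested probe sets). CRR21, a pentatricopeptide repeat protein that edits a chloroplast transcript, had signals of 27.4, 38.8 and 15.6 in arrays 20, 28 and 30, against 110, 64.9 and 108 in arrays 19, 21 and 29, and 77.8 to 109 (median 95.2) in the other 12. Cpn60beta4, a subunit of the chloroplast chaperonin that folds proteins, had 60.0, 74.0 and 53.5 in arrays 20, 28 and 30, against 207, 152 and 197 in arrays 19, 21 and 29, and 114 to 227 (median 174) in the other 12. The chaperonin subunit was thus lower in each of the 3 arrays by a like amount. AT5G09820, a fibrillin of plastid lipid bodies, had 39.3, 46.1 and 27.8 in arrays 20, 28 and 30, against 173, 89.9 and 140 in arrays 19, 21 and 29. AT2G34620, of the mTERF family of organelle transcription factors, had 125, 64.2 and 122 in arrays 20, 28 and 30, against 286, 352 and 361.3 in arrays 19, 21 and 29. The pentatricopeptide repeat genes AT3G14330 and AT5G66520 differed by -1.56 and -1.78.

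The transport group held 4 genes in 5 probe sets, with a median of -1.93. Besides AT1G68600 it held AT3G21670 (NPF6.4), of the nitrate transporter family, with 92.0, 82.4 and 69.5 in arrays 20, 28 and 30, against 258, 188 and 405 in arrays 19, 21 and 29, and 72.8 to 316 (median 180.3) in the other 12. The lowest of the 12, SA array 36, lay within the range of arrays 20, 28 and 30. AT1G32090, of the OSCA family of osmosensitive calcium channels, had 33.2, 24.7 and 33.1 in arrays 20, 28 and 30, against 99.9, 119 and 114 in arrays 19, 21 and 29. AT5G50740, a protein with a heavy-metal-binding domain, was measured by 2 probe sets, which differed by -2.08 and -1.93. Its probe sets share a transcript and are not independent of each other.

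The 7 signalling genes had a median of -1.77. AT3G15570, of the family of NPH3, a protein of phototropism, had signals of 42.8, 39.9 and 28.0 in arrays 20, 28 and 30, against 244, 164 and 165 in arrays 19, 21 and 29, and 102 to 180 (median 144) in the other 12. AT3G19850, of the same family, had 11.7, 16.6 and 16.5 in arrays 20, 28 and 30, against 45.1, 75.2 and 52.9 in arrays 19, 21 and 29. STOMAGEN, a secreted peptide from the leaf mesophyll that promotes stomata, had 38.9, 39.4 and 43.6 in arrays 20, 28 and 30, against 125, 123 and 108 in arrays 19, 21 and 29, and 77.3 to 193 (median 126) in the other 12. Its values were close together within each set of 3 and apart between them. The receptor-like or related kinases AT1G54820, AT4G02630, AT2G45340 and AT4G34220 differed by -1.78, -1.77, -1.55 and -1.58. In AT4G34220 SA array 34, at 29.0, fell within the range of arrays 20, 28 and 30.

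The transcription factors BZIP61 and AT1G01250, an ERF of the AP2 family, differed by -2.24 and -2.26, but both overlapped. BZIP61 had signals of 11.7, 3.46 and 21.8 in arrays 20, 28 and 30, against 17.7, 83.6 and 62.5 in arrays 19, 21 and 29. AT1G01250 had 8.32, 20.9 and 1.78 in arrays 20, 28 and 30, against 49.2, 16 and 42.9 in arrays 19, 21 and 29. Each had 1 very weak value, 3.46 in array 28 for BZIP61 and 1.78 in array 30 for AT1G01250.

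Whether the members also differed between SA and silwet was tested on the 12 arrays that took no part in the ranking, 6 of each treatment, with limma and Benjamini-Hochberg adjustment over all 13657 tested probe sets. SA minus silwet was called for 0 of 149 members and for 0 probe sets in all (0.0%), with 2 members and 260 tested probe sets (1.9%) at an unadjusted p under 0.05. Arrays were not paired by replicate number in this test, and with that number as a block 0 members were called as well. The log2 differences of the members ran from -0.57 to 0.57 with a median of 0.05, 94 positive and 55 negative, and the median standard error of a member was 0.20. The median over all tested probe sets was -0.01. The first block's lower values of arrays 28 and 30 therefore had no counterpart of that size between the treatments in the other 12 arrays. The role groups had medians from -0.13 (transport and transcription) to 0.08 (lipid), with a median of 0.05 for the wall genes, and 0 genes were called.

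The 2 members with an unadjusted p under 0.05 had no gene name, and they differed in sign. The first averaged 4.17 ± 0.40 log2 in SA and 4.74 ± 0.50 in silwet (SD, n = 6 each), a difference of -0.57 (SE 0.26, limma adjusted p = 1), the lowest of the members. The other averaged 9.997 ± 0.12 log2 in SA and 9.80 ± 0.17 in silwet (SD, n = 6 each), a difference of 0.20 (SE 0.09, limma adjusted p = 1). Among the members with a single gene, AT2G29310, AT2G01870 and AT5G56100 had the smallest p. AT2G29310 averaged 8.84 ± 0.20 log2 in SA and 8.58 ± 0.28 in silwet (SD, n = 6 each), 0.26 apart on the log2 scale (SE 0.14, limma adjusted p = 1). AT2G01870 averaged 6.63 ± 0.20 log2 in SA and 6.38 ± 0.20 in silwet (SD, n = 6 each), a difference of 0.25 (SE 0.13, limma adjusted p = 1). AT5G56100 averaged 6.54 ± 0.38 log2 in SA and 6.18 ± 0.46 in silwet (SD, n = 6 each), a difference of 0.36 (SE 0.20, limma adjusted p = 1). None of these 5 members passed the adjusted threshold. Among the members with the largest rule difference, AT1G60590 differed by 0.08 (SE 0.29), AT3G28270 by 0.37 (SE 0.47) and AT1G68600 by 0.17 (SE 0.20).

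**Figure D4:**
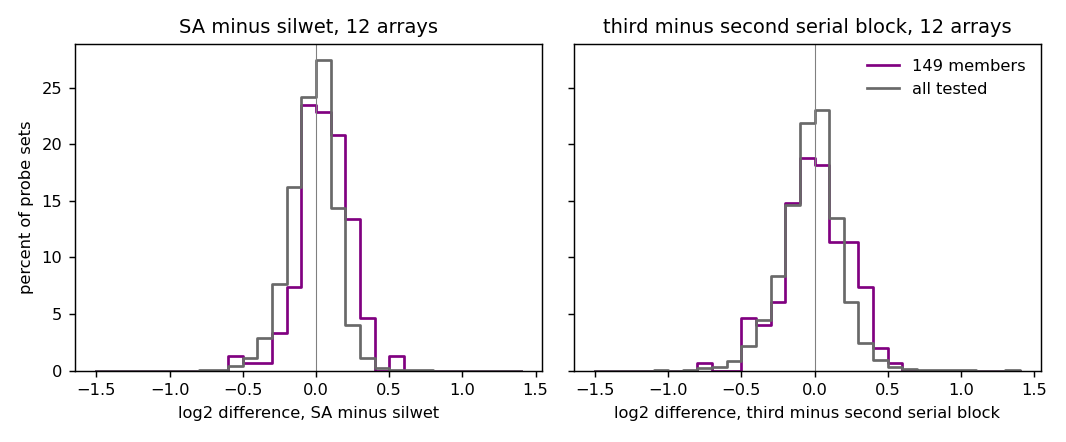
Distribution of log2 differences of the 149 members and of all 13657 tested probe sets in the 12 arrays outside the ranking, SA minus silwet on the left and the third minus the second serial block on the right, in percent of probe sets per bin. The members centre on 0.05 and 0.00, and all tested probe sets on -0.01 and -0.01.

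Within the second block, 3 SA against 3 silwet arrays, the member median was 0.08, and limma called 0 members and 0 probe sets (0.0%), with 1 member and 98 probe sets (0.718%) at an unadjusted p under 0.05. Within the third block it was 0.02, with 0 members and 0 probe sets called (0.0%) and 2 members and 483 probe sets (3.54%) at an unadjusted p under 0.05. STOMAGEN averaged 7.19 ± 0.35 log2 in SA and 6.59 ± 0.42 in silwet in the third block (SD, n = 3 each), a difference of 0.60 (SE 0.24, limma adjusted p = 0.977), against -0.13 (SE 0.24) in the second block. Whether the treatment difference changed between the blocks was tested as an interaction, for which 0 members and 0 probe sets (0.0%) were called and 1 member and 238 probe sets (1.74%) had an unadjusted p under 0.05. That member was AT5G50335, with an interaction of 1.29 (SE 0.52, limma adjusted p = 1). In the third block it averaged 6.10 ± 0.51 log2 in SA and 5.25 ± 0.54 in silwet (SD, n = 3 each), and in the second 5.65 ± 0.35 in SA and 6.09 ± 0.66 in silwet. The interaction of STOMAGEN was 0.73 (SE 0.35, limma adjusted p = 1). The third block itself differed from the second in 0 members and 0 probe sets (0.0%), with 4 members and 731 probe sets (5.35%) at an unadjusted p under 0.05, and the member median was 0.00. AT3G07310 averaged 7.80 ± 0.24 log2 in the third block and 7.47 ± 0.21 in the second (SD, n = 6 each), a difference of 0.33 (SE 0.13, limma adjusted p = 0.876). Cpn60beta4 differed by -0.32 (SE 0.14) and AT5G21100 by -0.42 (SE 0.18), both with a limma adjusted p of 0.876.

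More probe sets differed between the replicate numbers, each with 4 of the 12 arrays. An F-test in limma over the 3 numbers called 14 of the 149 members and 779 probe sets in all (5.7%). At an unadjusted p under 0.05 there were 45 members, or 30.2%, and 3437 probe sets (25.2%). Of the 14 called members, 12 were lowest in replicate number 1, as were 74 of all 149 members. The share among all called probe sets was not counted, so this is not shown to be particular to the members. The called members with a gene name included lipid and wall genes and an organelle factor, described next.

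AT5G48490, the lipid transfer protein, averaged 6.07 ± 0.35, 7.03 ± 0.36 and 7.46 ± 0.27 log2 in replicate numbers 1, 2 and 3 (SD, n = 4 each; limma adjusted p = 0.00843). AT5G62360, the methylesterase inhibitor, averaged 8.61 ± 0.17, 9.64 ± 0.35 and 9.26 ± 0.25 log2 (SD, n = 4 each; limma adjusted p = 0.0223). AT2G34620, the mTERF protein, averaged 7.71 ± 0.25, 8.11 ± 0.20 and 8.53 ± 0.25 log2 (SD, n = 4 each; limma adjusted p = 0.0284). These 3 genes were lowest in number 1, though their highest number differed. GH9C2, the endoglucanase, averaged 8.03 ± 0.30, 9.23 ± 0.36 and 8.94 ± 0.59 log2 (SD, n = 4 each; limma adjusted p = 0.0325). The kinase gene AT1G54820 averaged 6.59 ± 0.16, 7.11 ± 0.21 and 7.28 ± 0.15 log2 (SD, n = 4 each; limma adjusted p = 0.0394). SHN3, the cuticle factor, went the other way, with 5.55 ± 0.47, 4.64 ± 0.33 and 4.47 ± 0.37 log2 (SD, n = 4 each; limma adjusted p = 0.0389). These calls depend on single arrays: without silwet array 25, of number 1, the test called 2 members and 124 probe sets.

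The SA minus silwet difference of the members depended on the replicate number in sign, a comparison added after the data had been seen. With 2 SA and 2 silwet arrays for each number, the member median was 0.36 in number 1, -0.35 in number 2 and 0.16 in number 3, against -0.02, -0.01 and -0.00 over all tested probe sets. In number 1, 135 members were higher in SA and 14 lower, in number 2 it was 14 higher and 135 lower, and in number 3 it was 104 higher and 45 lower. The signs were the same in both later blocks. Replicate numbers 1, 2 and 3 had medians of 0.45, -0.45 and 0.20 in the second block and of 0.27, -0.17 and 0.08 in the third block. In the first block they were -1.73, 1.70 and -1.85, larger and of the opposite sign in each number. There the rule itself set which arrays were low, so the size and the sign carry no test.

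**Figure D5:**
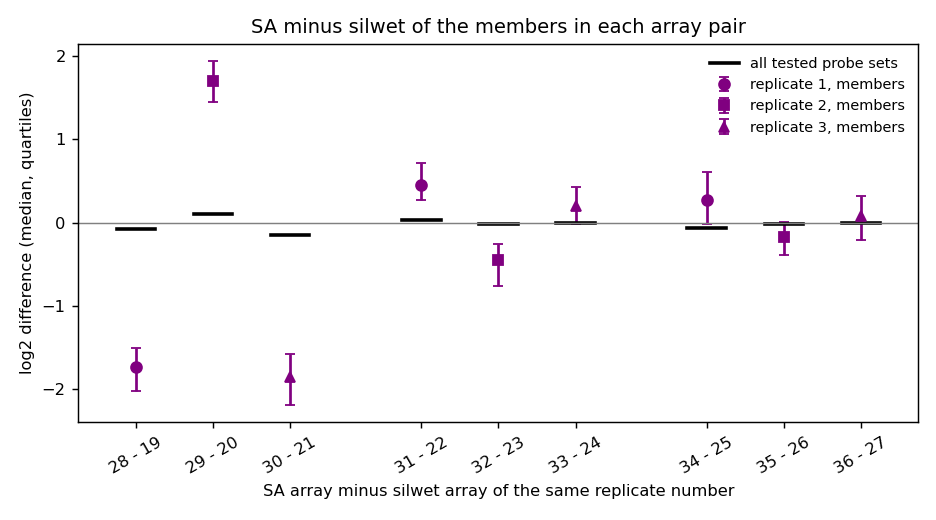
Log2 difference of the members, SA array minus silwet array of the same replicate number, for the 9 array pairs (points are medians, bars the quartiles over members, black lines the median of all tested probe sets). From left to right the 3 pairs of the first, the second and the third serial block are shown. The first block, whose arrays chose the members, has medians of -1.73, 1.70 and -1.85. Both later blocks have the opposite sign in each number, at 0.45, -0.45 and 0.20 and at 0.27, -0.17 and 0.08.

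For single members these differences did not pass the test. The pattern of higher in SA in number 1, lower in number 2 and higher in number 3 occurred in 89 of 149 members, against 17.1% of the tested probe sets, and its reverse in 2 members, against 16.8%. These members share the same 12 arrays, so their signs are not independent of each other. A limma F-test of whether the treatment difference varied with the replicate number called 0 members and 0 probe sets (0.0%), while 43 members (28.9%) and 647 probe sets (4.74%) had an unadjusted p under 0.05. With 2 SA and 2 silwet arrays in each number, 0 calls does not show that the treatment difference was alike in the 3 numbers. The smallest adjusted p of a member was 0.623, in an unnamed probe set. AT3G28270 had SA minus silwet differences of 1.27, -1.15 and 0.98 in numbers 1, 2 and 3 (SE 0.40 each, limma adjusted p = 0.86 for the F-test). ATSPS4F had 0.38, -0.89 and 0.28 (SE 0.26 each, limma adjusted p = 0.904). Within number 1 limma called 0 members and 0 probe sets (0.0%), with 33 members and 958 probe sets (7.01%) at an unadjusted p under 0.05. Number 2 gave 0 calls (0.0%), with 23 members and 399 probe sets (2.92%) under that limit, and number 3 gave 0 calls (0.0%), with 7 members and 301 probe sets (2.2%). Without SA array 31, 7 members and 540 probe sets were called in number 1, but SA array 34 is then its only SA array and is assumed to vary like the other groups.

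The members also varied together in the 12 arrays outside the ranking. The correlation of a member with the median of the other members over the 12 arrays was positive in 144 of 149, had a median of 0.49 and a range of -0.30 to 0.84, and exceeded 0.5 in 68. Between pairs of members the median correlation was 0.24 and 72.3% were positive, against 0.00 and 50.2% for pairs of tested probe sets. These are descriptions over 12 arrays that share treatments, replicate numbers and scaling, and no test was made. The 150 probe sets highest in arrays 20, 28 and 30 had a median pairwise correlation of 0.23, so the value of 0.24 was not particular to the lower set. The 10 wall genes had a median correlation with the other members of 0.68, the 7 signalling genes 0.51 and the 2 transcription factors 0.11. Among named genes AT3G19850 (0.79), AT1G60590 (0.78) and CRR21 (0.76) were high, while SHN3 had -0.04 and AT3G49140 0.01. In array medians, SA array 32 and silwet array 22 were the lowest of the 12 at -0.29 and -0.28, and SA array 33 was the highest at 0.24, while the medians of all tested probe sets lay between -0.03 and 0.03. The residual SD of a member within its treatment and block had a median of 0.40 log2, against 0.27 for all tested probe sets, and 0.37 against 0.24 at a mean log2 signal of 6 or more.

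Lists of other genes, matched on gene symbols, held no member, since only 8 members carried a symbol other than their locus. Their values in the arrays of the rule are a description, and over all tested probe sets 59.9% were lower in arrays 20, 28 and 30, while 26.1% were lower without overlap with arrays 19, 21 and 29. Of the 7 tested genes of chlorophyll synthesis, with a median difference of -0.68, 5 were lower, all 5 without overlap. CHLI2, a subunit of the magnesium chelatase that starts the chlorophyll branch, had signals of 162, 169 and 229 in arrays 20, 28 and 30, against 312, 332 and 314 in arrays 19, 21 and 29. Of the 9 listed under the photosystems and light harvesting, with a median of -0.29, all 9 were lower and 5 without overlap. That list also held RCA, the activase of Rubisco, which belongs to neither. RCA was among the 5 without overlap, and its own value of -0.29 was the median. Of the 10 of sugar transport and starch, with a median of -0.77, 8 were lower and 3 without overlap. Of the 8 of tubulin and actin, with a median of -0.45, 7 were lower and 4 without overlap. The median of each of these lists lay below that of all tested probe sets, -0.11.

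Wall genes of the lists did not all go the way of the members. Of the 8 expansins, with a median of -0.43, 6 were lower and 3 without overlap. EXPA8, EXPA4 and EXLB1 among them were barred from the members by name. At -1.15, -0.50 and -0.24 they did not reach the limit of the members. Of the 5 xyloglucan enzymes, with a median of -0.80, 4 were lower but only 1 without overlap. XTH29, a xyloglucan endotransglucosylase, was higher, with signals of 42.8, 54.3 and 81.6 in arrays 20, 28 and 30, against 17.0, 27.7 and 19.8 in arrays 19, 21 and 29. The list of pectin enzymes matched 6 symbols, of which only PME61 and PMEPCRF are pectin methylesterases. Both were higher in arrays 20, 28 and 30 without overlap. PME61 had signals of 220, 158 and 193 in these arrays, against 102, 118 and 113 in arrays 19, 21 and 29. PMEPCRF had 518, 422 and 503 in arrays 20, 28 and 30, against 194, 254 and 238 in arrays 19, 21 and 29. The 6 genes listed under cellulose synthesis had a median of -0.05, with 3 lower and 2 without overlap. Apart from COB, at -0.47 without overlap, they were cellulose synthase-like (CSL) genes, and no cellulose synthase itself was among them. The list of peroxidases matched only 2 symbols, PRX52 at 0.76 and PRXIIF, a peroxiredoxin, at 0.10. It did not hold AT5G40150, the class III peroxidase among the members, which was lower at -1.74. The list therefore does not describe the peroxidases as a family. In the 12 arrays 0 genes of these lists were called between SA and silwet.

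The markers that the annotation names do not settle the tissue. RCA, the activase of Rubisco and a marker of photosynthetic leaf tissue, had signals of 2420, 2430 and 2170 in arrays 20, 28 and 30, against 3250, 2500 and 2910 in arrays 19, 21 and 29, and 1760 to 2994 in the other 12. FMA, a marker of the guard cell lineage, had 48.7, 55.9 and 47.3 in arrays 20, 28 and 30, against 77.9, 53.3 and 69.2 in arrays 19, 21 and 29. The rule difference was -0.29 for RCA and -0.39 for FMA, against a median of -0.11 over all tested probe sets. Neither is a member, so by the rule both fall short of the members. In bulk RNA, fewer cells of a type and less RNA per cell cannot be told apart.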

How the data were processed

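The authors deposited 1 table of MAS5 signal intensity per probe set for 18 arrays, per the submitters' processing notes. Neither the version nor the settings of MAS5 are stated in the sources used here. The deposited intensity values are linear, with 0 missing values in 22810 probe sets, of which 64 controls were left out. Every column already had the same trimmed mean, so no further scaling was applied, and log2 was taken without a pseudocount. Median signal per array was 31.7 to 38.7, and precision is limited by the number of arrays.

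Gene names came from the platform annotation, updated through a RefSeq gene table, with 13513 probe sets paired with 1 gene, 503 with several and 8730 with none. Members and gene lists were chosen with earlier results of these data known. Named genes were the 15 single-gene members with the largest difference, the 3 at either side of the limit, the 3 single-gene members with the smallest p in each test, and, added later, the genes with a known role, in 8 groups holding 42 of the 85 loci.

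Tests used limma 3.58.1 (R 4.3.3), lmFit and eBayes with an intensity trend, on 4 groups (treatment by serial block) of 3 arrays, and were checked on simulated data. A call is a Benjamini-Hochberg adjusted p under 0.05. The 12 columns tested and the 6 ranked are separate arrays, and 0 columns lacked a sample. The alternatives were quantile normalization, median centring, a pseudocount of 16, other filters, no trend, the replicate block, and leaving out numbers or arrays.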

Additional observations from a re-analysis of the deposited data

Results flagged for a closer look

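In 5 of 114 sample groups examined (4.39%) the highest or lowest array stood apart by Dixon's criterion, which chance exceeds in about 1 group in 20. The value given is the gap to the nearest array divided by the range of the group. SA array 34 accounted for 3 of the 5 among the 6 SA arrays outside the ranking. It was highest for AT1G01250 (0.742), lowest for AT5G40150 (0.674) and lowest for AT4G34220 (0.733). Silwet array 24 was lowest for AT1G70280 (0.645) among the 6 silwet arrays. For the median of the 149 members over the 9 silwet arrays, array 20 was lowest (0.736), and that array was chosen by the rule for its low values.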

How the results depend on the processing

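In the 12 arrays outside the ranking no member was called between SA and silwet over both blocks, in either block, in the interaction or between the blocks, in any of the alternatives run. With the replicate number as a block, limma called 2 probe sets for SA minus silwet in the second block, 2 for the interaction and 1 between blocks, against 0 for each without it. The main tests did not treat the replicate numbers as pairing samples, although the arrays went together by number. Deviations of same-number arrays had a median correlation of 0.277, with 14 of 18 pairs over 0.1 (lowest 0.0214). For pairs of different numbers the median was -0.134, with 5 of 36 over 0.1. All 12 arrays correlated best with an array of their own number. Differences between numbers therefore stayed in the residual spread of the main tests, which can lower their number of calls.

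The count for replicate numbers, 14 members and 779 probe sets, was 7 members with no filter on level, 405 probe sets and 7 members with a filter at a log2 signal of 6, and 8 members when only members at that level were counted. Leaving out single arrays gave 124 to 711 probe sets and 2 to 16 members. For SA minus silwet in replicate number 1, leaving out single arrays gave 0 to 540 probe sets and 0 to 7 members, where leaving out an array of that number leaves 1 array on its side, assumed to vary like the other groups. The cause of these changes was not tested.

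The median SA minus silwet difference of the members, 0.05, was -0.35 (-0.346) in replicate number 2 alone, and without numbers 1, 2 and 3 in turn or without single arrays it ranged from -0.09 to 0.25 (-0.091 to 0.251). Ranking after quantile normalization shared 131 of the 149 members (87.9%). Signals of 59 members are low, and 2 arrays a group limit the comparisons within a replicate number.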
